A study of Mus musculus with 4 samples.

Results

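Of the 31828 genes listed for AML12 cells, 10 carry names known mainly from white blood cells: Ms4a4b, Ms4a4c, Ms4a4d, Ms4a6b, Pilra, Pilrb1, Pilrb2, Ncf4, Rac2 and Lcp1. They were picked by symbol because their RNA was higher in 3D than in 2D culture, so their differences between the cultures are given as a description and carry no test. AML12 is an immortalised hepatocyte line from a mouse with a TGF alpha transgene, and its cells grew either flat on plastic (2D) or inside Matrigel, a gel of basement membrane proteins (3D). There were 2 RNA-seq libraries per culture and 4 in all. Cells of both cultures received 1 mM hydroxyurea, an inhibitor of DNA replication, for 24 h in 2D and 36 h in 3D, so the effects of culture and of treatment time cannot be told apart. The labels do not say whether the libraries of a culture came from separate dishes, and p-values therefore measure only the spread between these libraries.

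MS4A proteins cross the membrane 4 times and include CD20, the product of Ms4a1 on B cells. The mouse genes with an Ms4a symbol lie in a cluster on chromosome 19. PILR receptors come in pairs: PILR alpha inhibits the cell through the phosphatases SHP-1 and SHP-2, and PILR beta activates it through the adaptor DAP12. Ncf4 encodes a cytosolic subunit of the phagocyte NADPH oxidase, Rac2 is the Rac GTPase of blood cells that serves this enzyme, and Lcp1 encodes L-plastin, an actin bundler of leukocytes that is also made by many transformed epithelial lines.

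The values are TPM, abundances that are scaled to a fixed total. They are corrected for transcript length and can be compared between genes. TPM sum to the same total in every library, so depth is unknown, and between 13891 and 14256 genes reached 1 TPM per library. A mean of at least 1 TPM over the 4 libraries was reached by 14116 genes and by 9 of the 10 genes, all but Ms4a4c. As labelled, the cells carried epithelial and hepatocyte RNA. The keratin Krt18 was measured at 6207 ± 112 TPM (SD, n = 2) in 2D cells and at 3297 ± 31.2 TPM in 3D cells, and the hepatocyte factor Hnf4a at 57.1 ± 0.663 and 160 ± 5.78 TPM. Epcam and Fgb were at or near 0 in every library, and Alb (albumin) was at 1.01 ± 0.271 TPM in 2D. Ptprc, the gene of the pan-leukocyte antigen CD45, lay between 0.111 and 0.296 TPM.

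The promoters of the 3 Pilr genes are shown first because they share a stretch that no other listed promoter holds. Each sequence gives the 250 bases before the RefSeq transcript start in mouse build GRCm38.p6, on the minus strand of chromosome 5, read 5′ to 3′. Capitals mark a run of 86 bases that is identical in all 3, and of 32851 listed promoters 3 contain it.
Pilra, chr5:137836279-137836528: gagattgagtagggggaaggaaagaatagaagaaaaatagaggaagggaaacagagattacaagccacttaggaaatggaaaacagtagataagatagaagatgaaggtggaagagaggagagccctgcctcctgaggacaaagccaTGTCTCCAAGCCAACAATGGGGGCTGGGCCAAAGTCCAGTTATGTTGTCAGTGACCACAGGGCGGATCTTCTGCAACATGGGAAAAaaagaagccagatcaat
Pilrb1, chr5:137858050-137858299: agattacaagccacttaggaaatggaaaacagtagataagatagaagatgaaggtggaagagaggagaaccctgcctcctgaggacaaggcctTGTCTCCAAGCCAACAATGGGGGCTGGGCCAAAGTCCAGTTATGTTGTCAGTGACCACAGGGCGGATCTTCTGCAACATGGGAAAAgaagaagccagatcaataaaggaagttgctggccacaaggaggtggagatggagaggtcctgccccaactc
Pilrb2, chr5:137871759-137872008: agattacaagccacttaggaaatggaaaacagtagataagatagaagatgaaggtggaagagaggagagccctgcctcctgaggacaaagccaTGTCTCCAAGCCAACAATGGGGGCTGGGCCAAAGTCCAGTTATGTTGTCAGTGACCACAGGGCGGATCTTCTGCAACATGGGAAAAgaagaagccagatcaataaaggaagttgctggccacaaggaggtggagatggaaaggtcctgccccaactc
The run lay 103 to 18 bases before the RefSeq start in Pilra and 157 to 72 bases before it in Pilrb1 and Pilrb2. These distances depend on the start used. In the deposited table the genes begin at bases 137836281, 137858106 and 137871815. The windows of Pilrb1 and Pilrb2 thus reach further into the gene than that of Pilra, and the distances show no difference in layout. Over the whole window Pilrb1 and Pilrb2 were 98.4% identical, against 63.2% for Pilra and Pilrb1 and 64.1% for Pilra and Pilrb2. These shares count unaligned bases as differences. The Pilra window is shifted against the others, and 196 of its 250 bases were aligned to each of them, against all 250 for Pilrb1 and Pilrb2. The lower shares therefore largely reflect where the windows lie and do not show that the aligned parts differ more.

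The promoters of Ms4a4b and Ms4a4d, the pair of Ms4a genes with the highest levels, are shown because their ratios between the cultures were unlike. Both lie on the plus strand of chromosome 19, and capitals mark the motif named after each.
Ms4a4b, chr19:11443308-11443557, TATA: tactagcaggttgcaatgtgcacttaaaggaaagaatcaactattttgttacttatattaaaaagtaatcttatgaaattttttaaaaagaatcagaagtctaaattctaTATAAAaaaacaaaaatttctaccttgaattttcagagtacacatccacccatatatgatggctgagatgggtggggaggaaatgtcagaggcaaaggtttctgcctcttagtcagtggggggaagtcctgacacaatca
Ms4a4d, chr19:11536544-11536793, C/EBP: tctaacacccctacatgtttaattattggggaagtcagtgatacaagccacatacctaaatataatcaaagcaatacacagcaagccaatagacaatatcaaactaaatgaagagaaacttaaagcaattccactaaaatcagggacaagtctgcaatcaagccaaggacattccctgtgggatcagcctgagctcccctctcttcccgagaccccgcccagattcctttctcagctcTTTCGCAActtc
A promoter was listed for 8 of the 10 genes, all but Ncf4 and Rac2, and Lcp1 had 2. Motifs were searched on both strands in the 250 bases before the start, here and in all listed promoters. The letters searched for PU.1, a factor of myeloid and B cells, were GAGGAAG, found in 10.6% of all listed promoters. For AP-1 they were TGANTCA (6.75%), and for STAT factors TTCNNNGAA (7.02%). For C/EBP, a factor family of liver and myeloid cells, they were TTGCNNAA (9.56%), and for the TATA box TATAAA (12.4%). The interferon response motif was found in 2.98% of promoters. The 3 Pilr promoters each held an interferon response and a C/EBP match, the latter inside the shared run. Both matches had the same letters in all 3 promoters and lay in stretches alike between them, so they are not separate finds. In Pilra these lay 178 and 35 bases before the start, with a PU.1 match 211 bases before it, and in Pilrb1 and Pilrb2 they lay 232 and 89 bases before it. TATAAA lay 140 bases before the Ms4a4b start, and a C/EBP match lay 12 bases before the Ms4a4d start. None of the motifs was found in the windows of Ms4a4c, Ms4a6b and Lcp1, and no matches overlapped. Some of these windows do not lie before the gene as listed in the deposited table. Those of Ms4a4c (chr19:11407411-11407660) and Ms4a6b (chr19:11518309-11518558) and the second of Lcp1 (chr14:75136175-75136424) lie inside it. A match is a string of letters and was not tied to binding or expression.

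All 10 genes had both 3D libraries above both 2D libraries, which is what they were picked for. The same separation was seen for 24.8% of all listed genes and for 35.9% of genes with a mean of at least 1 TPM. By the ratio of mean TPM, all 10 were at least 2-fold, 7 at least 5-fold and 6 at least 10-fold higher in 3D. Among all genes with a mean of at least 1 TPM these thresholds were passed by 6.11%, 1.32% and 0.567%. Ms4a4c, which is counted at each threshold, has a lower mean and is not among those genes. The median log2(TPM + 1) difference, 3D minus 2D, was 2.48 over the 10 genes. It was 2.82 over the 9 with a mean of at least 1 TPM and -0.04 over the 14116 genes. In bulk RNA, more cells that make a transcript and more transcript per cell cannot be told apart.

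**Figure D1:**
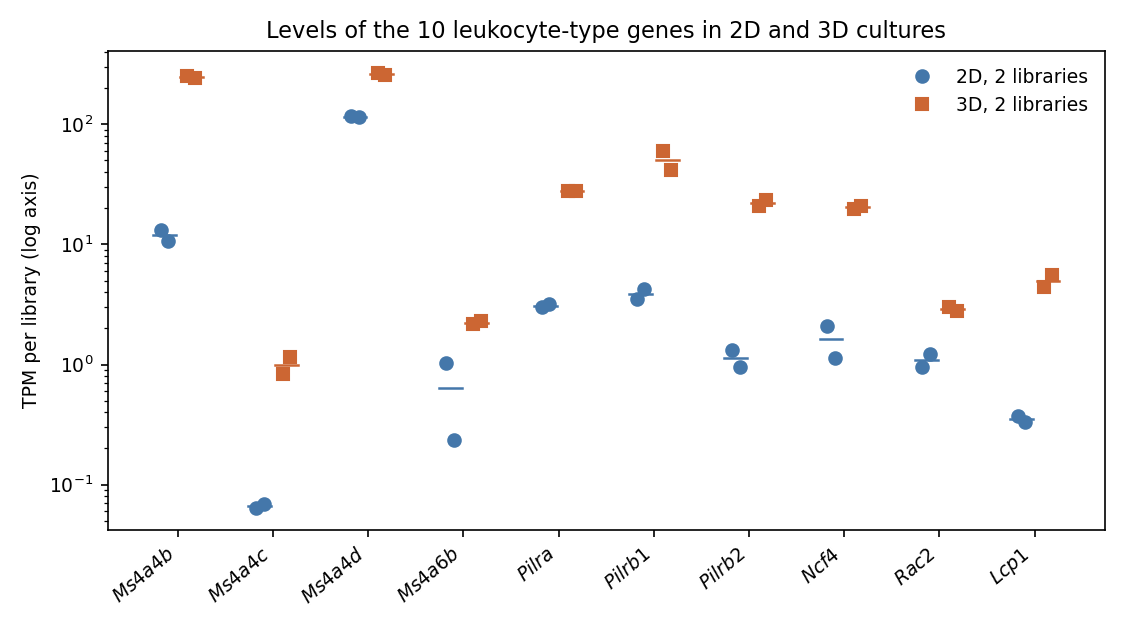
TPM of the 10 genes on a log axis, with 2D libraries as circles, 3D libraries as squares and the mean of each culture as a short line (2 libraries per culture). In every gene both squares lie above both circles, with Ms4a4d the highest gene in both cultures and Ms4a4c the lowest.

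Ms4a4b (ENSMUSG00000056290) is a family member described in T cells, and it lies at chr19:11443553-11463549 on the plus strand of GRCm38. The 2D libraries gave 13.2 and 10.7 TPM, and those of 3D cells gave 251 and 241 TPM. The cultures were much further apart than the libraries within them. The 2D libraries differed by 0.27 on the log2(TPM + 1) scale, at percentile 85.4 of all tested genes. Those of 3D differed by 0.06, at percentile 41.1. The means were 12.0 ± 1.74 and 246 ± 7.23 TPM (SD, n = 2), a ratio of 20.5 with 18.2 and 23.4 as the extremes for single libraries. Its log2(TPM + 1) difference of 4.26 ranked 8 among the 14116 genes, and its level moved from percentile 37.0 of those genes in 2D to percentile 95.8 in 3D.

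Ms4a4d (ENSMUSG00000024678, chr19:11536801-11558467, plus strand) was already abundant in 2D. It was measured at 116 and 115 TPM in 2D and at 269 and 257 TPM in 3D. No other of the 10 genes was as high in either culture, and its ratio was the smallest. The means were 116 ± 0.750 and 263 ± 8.74 TPM, a ratio of 2.28 (2.21 to 2.34 for single libraries) and a log2 difference of 1.18 that ranked 441. Thus Ms4a4b was far below Ms4a4d in 2D and came near it in 3D, where the lowest Ms4a4d library was still above the highest Ms4a4b library.

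Ms4a6b (ENSMUSG00000024677, chr19:11516512-11531256, plus strand), also described in T cells, was low throughout. Its libraries read 1.04 and 0.235 TPM in 2D and 2.16 and 2.29 TPM in 3D. The 2D libraries disagreed with each other more than the 3D libraries did, by 0.72 on the log2(TPM + 1) scale, a replicate difference at percentile 98.1 of all tested genes. The means were 0.636 ± 0.567 and 2.23 ± 0.0885 TPM, and the ratio of 3.50 had extremes of 2.09 and 9.74 for single libraries, the widest of the 10 genes.

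Ms4a4c (ENSMUSG00000024675, chr19:11404770-11427246, plus strand) was the lowest of the 10. It was listed at 0.0636 and 0.0696 TPM in 2D and at 0.828 and 1.16 TPM in 3D. The ratio of means was 15 (11.9 to 18.3), while the log2(TPM + 1) difference was only 0.90 because the added 1 TPM outweighs such levels. The coding sequence of Ms4a4c is 91.7% identical to that of Ms4a4b, and 8.0% of its 50-base windows occur in Ms4a4b transcripts, though none of its 150-base windows (the read length) occurs in another gene on the same strand. With Ms4a4b so much higher, how the quantification split reads between the 2 genes was not tested, and the Ms4a4c values are uncertain. The 4 genes summed to 130 and 126 TPM in 2D and to 523 and 501 TPM in 3D, a ratio of 3.99.

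Pilra (ENSMUSG00000046245, chr5:137821952-137836281, minus strand), the inhibitory receptor, was measured at 3.00 and 3.19 TPM in 2D and at 27.9 and 28.0 TPM in 3D. Both pairs of libraries were tight. The means were 3.09 ± 0.134 and 27.9 ± 0.0788 TPM, with a ratio of 9.03 (8.75 to 9.34), a log2 difference of 2.82 and rank 31. Pilra overlaps Zcwpw1 on the opposite strand by 670 bases, and the library kit kept the strand.

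Pilrb1 (ENSMUSG00000066684, chr5:137852147-137858106, minus strand), an activating receptor, read 3.51 and 4.21 TPM in 2D and 59.7 and 41.8 TPM in 3D. Its 3D libraries differed by 0.50 on the log2(TPM + 1) scale, at percentile 95.6 of all replicate differences in 3D. The means were 3.86 ± 0.495 and 50.7 ± 12.7 TPM, with a ratio of 13.1 (9.92 to 17.0). Pilrb2 (ENSMUSG00000066682, chr5:137865827-137871815, minus strand), its near copy, read 1.33 and 0.945 TPM in 2D and 20.9 and 23.5 TPM in 3D. The cultures were again far apart. The means were 1.14 ± 0.270 and 22.2 ± 1.84 TPM, with a ratio of 19.6 (15.8 to 24.9).

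The coding sequences of Pilrb1 and Pilrb2 are 93.5% identical, against 61.9% for Pilra and Pilrb1. The lower share counts unaligned bases as differences, and Pilra has 906 coding bases against 675 in Pilrb1. Of the 150-base windows in the transcripts of Pilrb1, 0.362% also occur in those of Pilrb2, and of 50-base windows 28.2% do, so the split of reads between these 2 genes is uncertain. Pilrb1 took 72.6% and 81.7% of the summed pair in 2D and 74.1% and 64.0% of it in 3D, ranges that overlap. The sum does not depend on that split. It was 4.84 and 5.16 TPM in 2D and 80.6 and 65.3 TPM in 3D, and its means of 5.00 ± 0.225 and 72.9 ± 10.8 TPM gave a ratio of 14.6 (12.7 to 16.7). All 3 Pilr genes together reached 7.84 and 8.34 TPM in 2D and 108 and 93.3 TPM in 3D, a ratio of 12.5 (11.2 to 13.8).

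**Figure D2:**
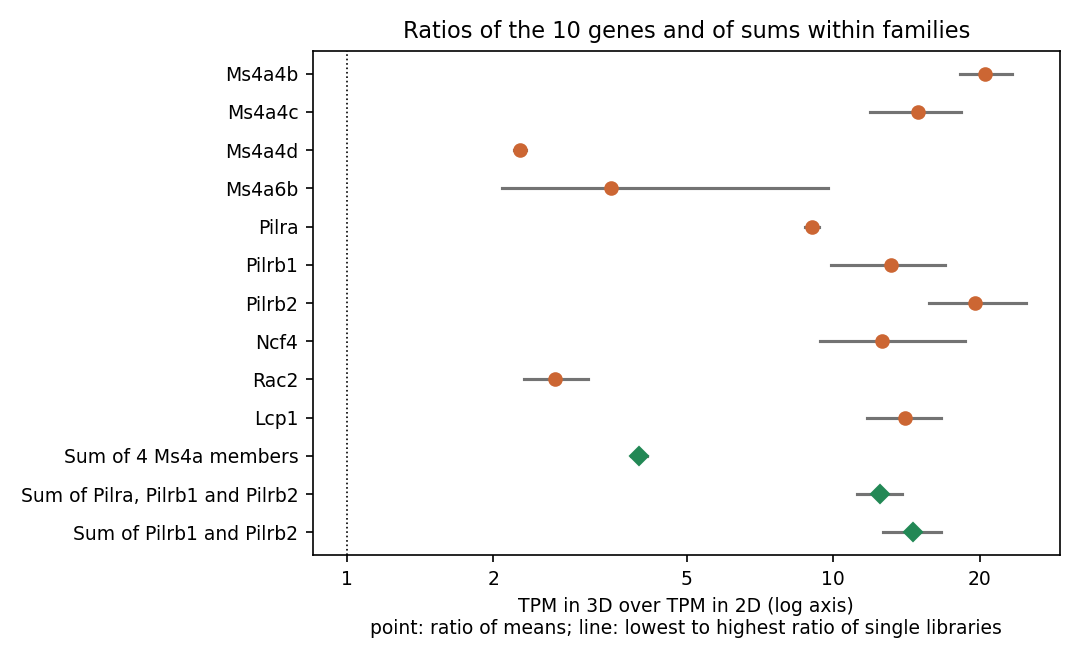
Ratio of TPM in 3D to TPM in 2D on a log axis for the 10 genes (circles) and for sums within families (diamonds). Points are ratios of means and lines run from the lowest to the highest ratio of single libraries; Ms4a4b lies at 20.5, Ms4a4d at 2.28 and the sum of Pilrb1 and Pilrb2 at 14.6.

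Ncf4 (ENSMUSG00000071715, chr15:78244801-78262580, plus strand), the oxidase subunit that binds phosphoinositides, was at 2.11 and 1.12 TPM in 2D and at 19.8 and 21 TPM in 3D. The 2D libraries differed by 0.55 on the log2(TPM + 1) scale, at percentile 96.3. The means were 1.62 ± 0.698 and 20.4 ± 0.792 TPM, with a ratio of 12.6 (9.41 to 18.7) and rank 22. None of its 50-base windows is shared with another gene.

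Rac2 (ENSMUSG00000033220, chr15:78559167-78572783, minus strand), the GTPase, was at 0.958 and 1.22 TPM in 2D and at 3.01 and 2.81 TPM in 3D. It stayed low in both cultures. The ratio of means was 2.68 (2.31 to 3.14), and the log2 difference of 0.91 ranked 775. Rac2 and Ncf4 are 297 kb apart on chromosome 15.

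Lcp1 (ENSMUSG00000021998, chr14:75131101-75230842, plus strand), the actin bundler, was at 0.376 and 0.334 TPM in 2D and at 4.42 and 5.56 TPM in 3D. Its 2D level was among the lowest of the 10. The means were 0.355 ± 0.0301 and 4.99 ± 0.810 TPM, with a ratio of 14.1 (11.7 to 16.7) and a log2 difference of 2.14. Of the 50-base windows of Lcp1 7.46% occur in other genes on the same strand, mostly in Gm6201. None of its 150-base windows does so, while 4.39% of them occur on the opposite strand, in Gm15628.

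In 2D the order of levels ran from Ms4a4d over Ms4a4b, Pilrb1 and Pilra to a group in which Ncf4, Pilrb2, Rac2 and Ms4a6b overlapped with at least 1 neighbour in the order, and ended with Lcp1, which lay inside the range of Ms4a6b, and Ms4a4c. In 3D it ran Ms4a4d, Ms4a4b, Pilrb1, Pilra, Pilrb2, Ncf4, Lcp1, Rac2, Ms4a6b and Ms4a4c, and only the libraries of Pilrb2 and Ncf4 overlapped.

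The genes beside them were taken by position, not for their values, and were tested. Among them is Gm37387, which GENCODE release M21 places inside Ms4a4b, so it may not be separate from that gene. Of 90 other genes within 250 kb of the 10 genes, 42 had a mean of at least 1 TPM, and limma called 22 of these (52.4%) higher and 7 (16.7%) lower in 3D at an adjusted p under 0.05. Over all 14116 genes tested, 50.5% were called, 23.4% higher and 27.1% lower. Some neighbours passed the expression filter only through 3D. Of the 34 with at least 1 TPM in each culture, 16 (47.1%) were higher and 6 (17.6%) lower, beside 23.1% and 26.7% of the 13390 such genes. Neighbours are not independent of each other, and no test of the whole group was made. Within 100 kb of the genes 17 of 23 tested neighbours were called, 16 higher and 1 lower. Within 500 kb 50 of 90 tested neighbours were called, 35 higher and 15 lower, against 29 of 42 within 250 kb.

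**Figure D3:**
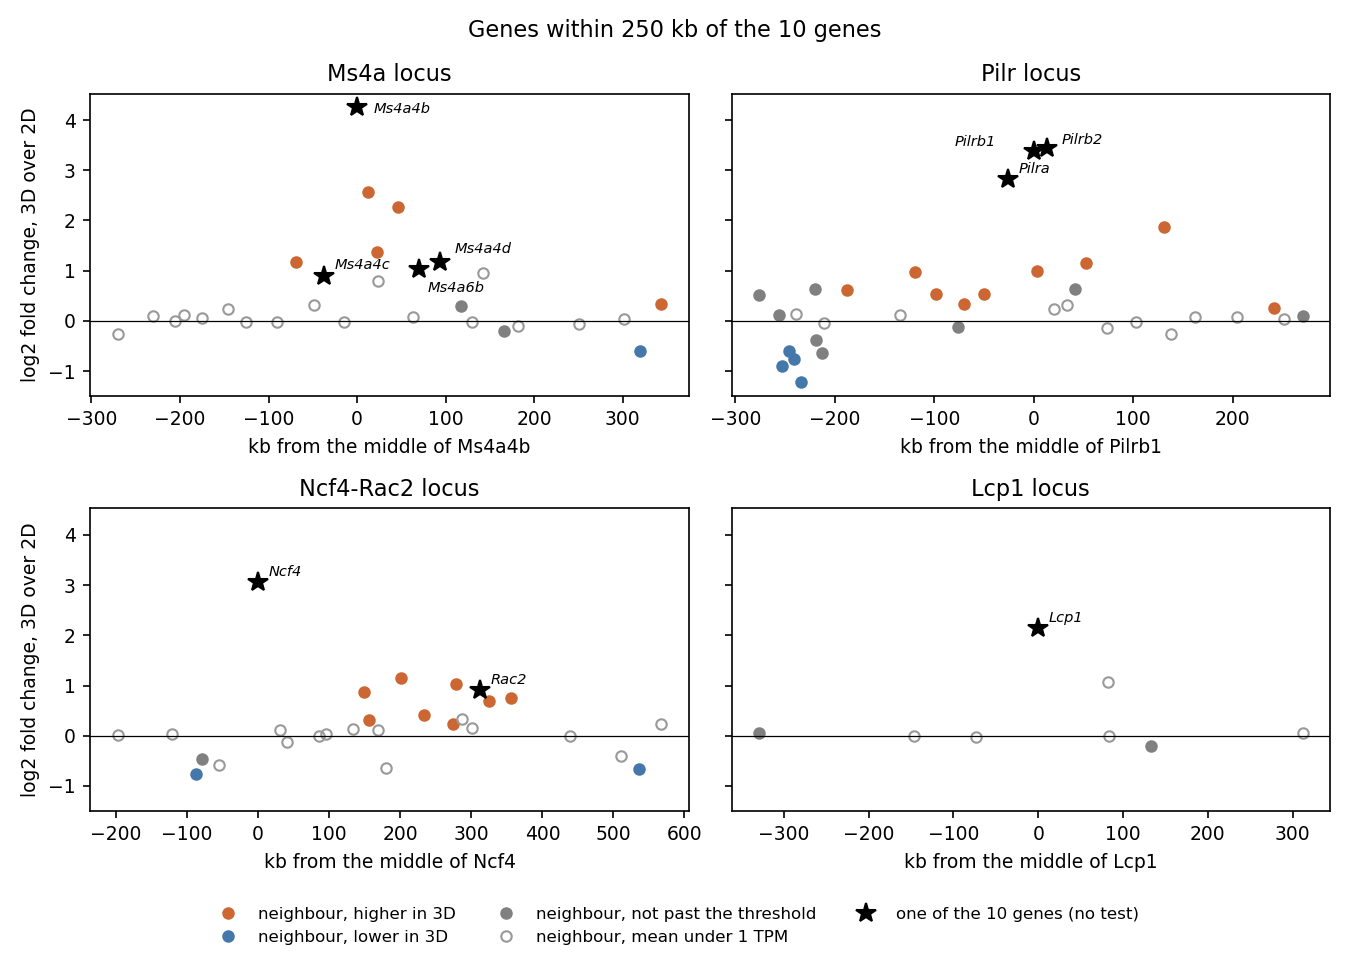
Difference in log2(TPM + 1), 3D minus 2D, of each gene within 250 kb of the 10 genes (stars) against its distance in kb from the middle of Ms4a4b, Pilrb1, Ncf4 or Lcp1. Filled circles were tested and are orange when higher, blue when lower and grey when not past the threshold, and open circles had a mean under 1 TPM; 22 are orange and 7 blue, with 5 orange at the Ms4a locus, 9 at the Pilr locus, 8 at the Ncf4 and Rac2 locus and 0 at Lcp1.

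At the Ms4a locus 5 of 8 tested neighbours were higher and 1 was lower, and of the 5 with at least 1 TPM in each culture 2 were higher and 1 was lower. The other calls, Ms4a4a, Ms4a6c and Gm37387, were of genes that passed the expression filter only through 3D, and they were also made with no filter on low values (adjusted p = 0.0184, 0.0056 and 0.00166). In the 229 kb from Ms4a4a to Ms4a6d, a stretch whose ends were chosen after its values were seen, 12 of 15 listed genes had both 3D libraries above both 2D libraries, 0 had them below and 3 overlapped. The 4 genes described are among the 12 and were picked for this separation. Of the 11 others in it 8 were so separated, beside 24.8% of all listed genes, and Gm37387 is among the 8. Ms4a4a rose from 0.317 ± 0.247 to 1.94 ± 0.251 TPM (log2 difference 1.17, SE 0.19, adjusted p = 0.00789). Ms4a6c rose from 0.243 ± 0.12 to 2.21 ± 0.00339 TPM (log2 difference 1.37, adjusted p = 0.00234), and an antisense gene covers part of it. These family members, like Ms4a6d at 0.0888 ± 0.126 and 1.10 ± 0.128 TPM (not tested), stayed far below Ms4a4b and Ms4a4d. The predicted gene Gm8369, between Ms4a6c and Ms4a6b, rose from 1.47 ± 0.363 to 10.9 ± 0.634 TPM (log2 difference 2.27, adjusted p = 0.000652).

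Gm37387, a noncoding gene 1701 bases past the end of Ms4a4b on the same strand, was listed at 0.105 and 0.181 TPM in 2D and at 6.29 and 5.31 TPM in 3D. It rose with a log2 difference of 2.57 (SE 0.14, adjusted p = 0.000496). In GENCODE release M21 Ms4a4b ends at base 11467055 in place of 11463549 and takes in this gene, so the RNA may be counted to Ms4a4b there. Outside the Ms4a stretch the window held Mrpl16, a mitochondrial ribosomal protein gene, which fell from 163 ± 8.87 to 107 ± 2.23 TPM (log2 difference -0.60, adjusted p = 0.0016), and Stx3, a syntaxin gene, which rose from 87.0 ± 6.87 to 110 ± 12.6 TPM (log2 difference 0.34, adjusted p = 0.0468), a call that was lost with no filter, with centring and without any of the libraries except 3D replicate 2. Ms4a1, Ms4a3, Ms4a5, Ms4a7, Ms4a12, Ms4a13 and Ms4a14 had means under 1 TPM.

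At the Pilr locus 9 of 21 tested neighbours were higher and 4 lower, and of the 17 with at least 1 TPM in each culture 7 were higher and 3 lower. Gm36551 and Azgp1 passed the expression filter only through 3D and Fbxo24 only through 2D, and they were also called with no filter (adjusted p = 0.0127, 0.00361 and 0.00929). Zcwpw1, which overlaps Pilra, rose from 8.72 ± 0.528 to 13 ± 0.256 TPM (log2 difference 0.53, adjusted p = 0.00696), much less than Pilra. Gm36551, which overlaps Pilrb1 by 1062 bases on the opposite strand, rose from 0.813 ± 0.0058 to 2.60 ± 0.382 TPM (log2 difference 0.99, adjusted p = 0.00511). On the other side, Cyp3a13, a drug-metabolising cytochrome P450 gene, rose from 51.1 ± 2.51 to 114 ± 2.41 TPM (log2 difference 1.14, adjusted p = 0.000434), and Azgp1, a gene for a secreted plasma glycoprotein, from 0.161 ± 0.0232 to 3.27 ± 0.60 TPM (log2 difference 1.87, adjusted p = 0.0013). The genes that fell all lay beyond Pilra, at the end of the window opposite to Cyp3a13 and Azgp1. Among them were Fbxo24 (log2 difference -1.22, adjusted p = 0.00349) and the procollagen processing gene Pcolce (log2 difference -0.59, adjusted p = 0.00106).

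Around Ncf4 and Rac2, 8 of 11 tested neighbours were higher and 2 lower, and of the 10 with at least 1 TPM in each culture 7 were higher and 2 lower. Tst and Mpst, a neighbouring pair of sulfurtransferase genes, rose by 0.86 and 0.32 on the log2 scale (adjusted p = 0.000664 and 0.00956), and the call of Mpst was lost without 3D replicate 2. Cyth4, a cytohesin gene near Rac2, rose from 5.09 ± 0.506 to 9.26 ± 0.870 TPM (log2 difference 0.75, adjusted p = 0.0064), and AL590144.2, 1628 bases from Rac2, rose from 44.5 ± 1.05 to 72.4 ± 6.28 TPM (log2 difference 0.69, adjusted p = 0.00258). Il2rb, a cytokine receptor gene of T and NK cells, rose from 6.55 ± 0.118 to 9.13 ± 0.635 TPM (log2 difference 0.42, adjusted p = 0.0176), a call that held only without 3D replicate 2 when a library was left out. Csf2rb and Csf2rb2, the cytokine receptor genes next to Ncf4, had means under 1 TPM. Ift27 and Card10 fell by 0.76 and 0.67 on the log2 scale (adjusted p = 0.00125 and 0.00273). Near Lcp1 neither of the 2 tested genes, Lrch1 and Zc3h13, passed the threshold (adjusted p = 0.618 and 0.139). Cpb2, which encodes a plasma carboxypeptidase made by the liver, begins 11445 bases past the end of Lcp1 on the same strand and had a mean under 1 TPM. It was at 0.0426 and 0.0406 TPM in 2D and at 1.37 and 1.04 TPM in 3D, and with no filter on low values it was called higher (log2 difference 1.08, adjusted p = 0.00941).

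Genes known to work with these proteins were taken from lists by function. The counts of each list stand beside 23.4% of all tested genes called higher and 27.1% called lower. Among 19 other MS4A family genes 17 were listed and 6 tested, and 4 rose and 0 fell. Of the 4 with at least 1 TPM in each culture 2 rose and 0 fell. Besides Ms4a4a and Ms4a6c these were Tmem176a and Tmem176b, distant relatives whose proteins sit in intracellular membranes. Tmem176a rose from 271 ± 20.7 to 663 ± 25.1 TPM (log2 difference 1.29, adjusted p = 0.000461), and Tmem176b from 611 ± 51.6 to 1143 ± 7.18 TPM (log2 difference 0.91, adjusted p = 0.000865). In each culture both were higher than any of the 10 genes. Ms4a10 and Ms4a2 did not pass the threshold (adjusted p = 0.224 and 0.568).

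Of 9 PILR partners, 3 were tested. Ptpn6, which encodes SHP-1, rose from 6.56 ± 1.09 to 9.24 ± 0.758 TPM (log2 difference 0.44, adjusted p = 0.0478), a call that was lost with no filter on low values (adjusted p = 0.104) and without any of the libraries except 2D replicate 2. Ptpn11, which encodes SHP-2, was at 94.3 ± 4.77 and 95.7 ± 0.820 TPM (adjusted p = 0.752), and Npdc1, a PILR alpha ligand gene, at 160 ± 3.54 and 159 ± 1.90 TPM (adjusted p = 0.939). Tyrobp, the gene of the adaptor DAP12, did not exceed 0.239 TPM in any library, and Syk, its kinase, did not exceed 0.273 TPM.

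Of 14 NADPH oxidase genes 4 were tested, and 1 rose and 2 fell. Cybb, the catalytic subunit of the phagocyte oxidase, was at 0.0528 and 0.0749 TPM in 2D and at 3.07 and 3.23 TPM in 3D (log2 difference 1.96, SE 0.13, adjusted p = 0.000718), and it passed the expression filter only through 3D. With no filter it was also called (adjusted p = 0.002). Rac1, the widely expressed Rac gene, fell from 773 ± 9.02 to 487 ± 3.80 TPM (log2 difference -0.66, adjusted p = 0.000442), and Nox4, a catalytic subunit of non-phagocytic cells, from 9.40 ± 0.0581 to 5.02 ± 0.996 TPM (log2 difference -0.80, adjusted p = 0.00948). Noxo1 did not pass the threshold (adjusted p = 0.732). Cyba and Ncf1, further subunit genes of the phagocyte enzyme, had means under 1 TPM, and Cyba reached at most 0.245 TPM and Ncf1 at most 0.240 TPM.

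Of 18 Rac regulators and plastins 15 were tested, and 5 rose and 3 fell, beside 23.4% and 27.1% of all tested genes. Pls1, the plastin of epithelial brush borders, rose from 6.94 ± 0.150 to 15 ± 0.127 TPM (log2 difference 1.01, adjusted p = 0.000935), while Pls3, the widely expressed plastin, fell from 98.2 ± 2.04 to 71.6 ± 2.56 TPM (log2 difference -0.45, adjusted p = 0.00263). L-plastin RNA thus stayed the lowest of the 3 plastins in both cultures. Among Rac exchange factors, Vav3 rose from 9.98 ± 0.682 to 15.6 ± 0.225 TPM (log2 difference 0.60, adjusted p = 0.00464), and Vav1, the form of blood cells, from 0.946 ± 0.165 to 1.95 ± 0.107 TPM (log2 difference 0.60, adjusted p = 0.021), a call that held only without 2D replicate 2 when a library was left out. Vav1 passed the filter only through 3D, and of the 14 genes with at least 1 TPM in each culture 4 rose and 3 fell. Pak2, a kinase that Rac activates, fell by 0.82 on the log2 scale (adjusted p = 0.000625). Without either of the 3D libraries in turn 5 of these 18 genes were called, 2 of them higher, against 8 with all libraries.

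**Figure D4:**
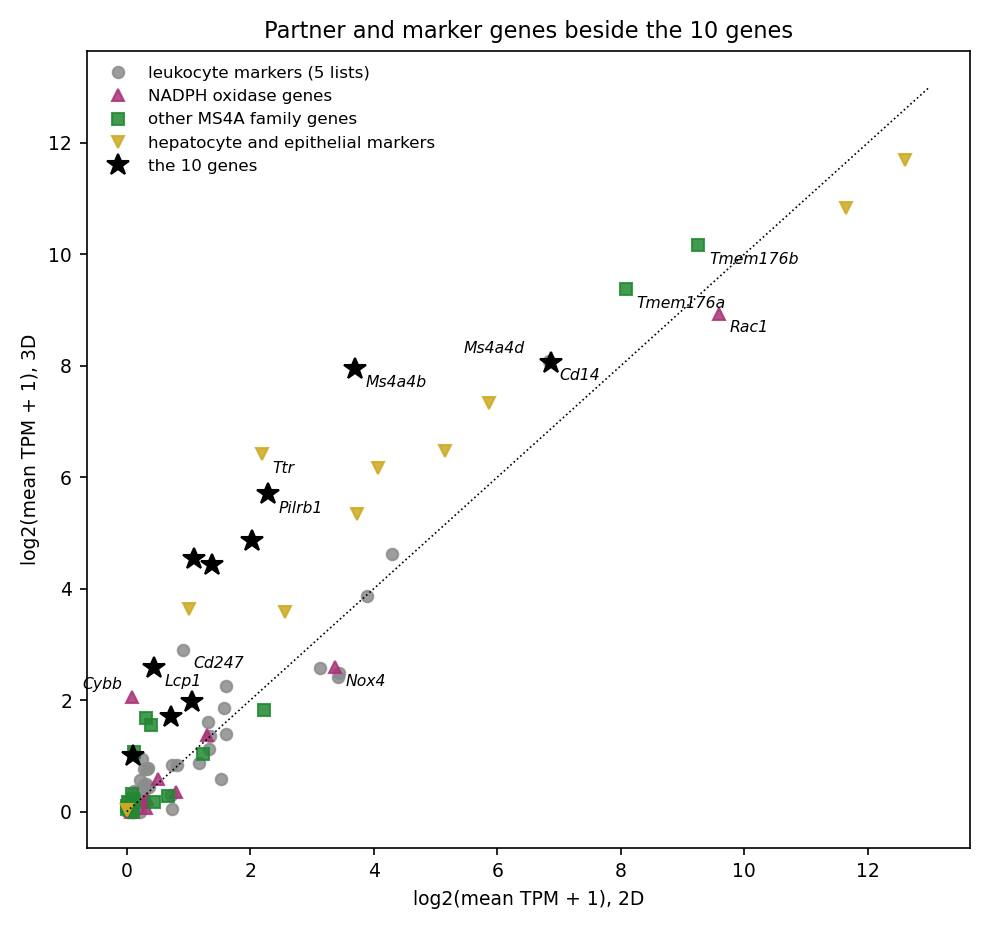
Mean TPM in 3D against mean TPM in 2D, both as log2(mean TPM + 1), for the 10 genes (stars), leukocyte markers of 5 lists (grey circles), NADPH oxidase genes (triangles), other MS4A family genes (squares) and hepatocyte and epithelial markers (inverted triangles). The dotted line marks equal levels; all 10 stars lie above it, and most grey circles lie near the origin, with Cd14 at 114 and 271 TPM the highest of them and hidden behind the star of Ms4a4d.

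Markers of blood cells were followed beside the 10 genes. Their counts stand beside 23.4% of all tested genes called higher and 27.1% called lower. Of 68 markers in 5 lists 63 were listed, 48 of them had a mean under 1 TPM, and of the 15 tested 3 rose and 4 fell. Cd14, a lipopolysaccharide co-receptor gene of macrophages that hepatocytes also express, rose from 114 ± 0.805 to 271 ± 0.0660 TPM (log2 difference 1.25, adjusted p = 0.000215) and made up most of their sum. The summed markers were at 194 and 196 TPM in 2D and at 357 and 349 TPM in 3D, and without Cd14 at 80.8 and 82.1 TPM in 2D and at 85.6 and 78.0 TPM in 3D. Without Cd14 the libraries of the 2 cultures overlapped.

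Of 15 pan-leukocyte markers 6 were tested, and 0 rose and 2 fell, which were Ptpn22 and Itgb2 (log2 differences -0.99 and -0.56, adjusted p = 0.00222 and 0.0104), and the call of Itgb2 was lost without 3D replicate 2. Of 17 T and NK cell markers 4 were tested. Cd247, the zeta chain of the T cell receptor complex, rose from 0.877 ± 0.195 to 6.50 ± 0.0897 TPM (log2 difference 2.00, adjusted p = 0.000668), while Cd3e and Trac of the same complex fell (log2 differences -0.94 and -0.95, adjusted p = 0.00555 and 0.00218). Cd247 passed the filter only through 3D and Cd3e only through 2D, both were also called with no filter (adjusted p = 0.00221 and 0.0119), and of the 2 markers with at least 1 TPM in each culture 0 rose and 1 fell. Of 16 macrophage and Kupffer cell markers 3 were tested, and Cd14 alone passed the threshold. Adgre1, the gene of the macrophage antigen F4/80, was listed at 0 in 3 libraries and at 0.0575 TPM in the other. Of 10 neutrophil markers S100a8 alone was tested and rose from 2.06 ± 0.284 to 3.78 ± 0.413 TPM (adjusted p = 0.0165, lost without 2D replicate 2 or 3D replicate 1), and of 10 B cell markers Pax5 alone was tested and did not pass the threshold (adjusted p = 0.28). Whether blood cells contributed to the 10 genes was not tested beyond these levels.

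Of 12 hepatocyte and epithelial markers 9 were tested, and 7 rose and 2 fell. Ttr, the thyroxine carrier made by hepatocytes, rose from 3.55 ± 0.621 to 84.5 ± 5.07 TPM (log2 difference 4.24, adjusted p = 0.000211), and Alb rose to 11.4 ± 1.91 TPM (log2 difference 2.62, adjusted p = 0.000691). Krt8 and Krt18 fell (log2 differences -0.82 and -0.91, adjusted p = 0.000287 and 0.000241). Of 11 endothelial and stellate markers Des, the gene of the muscle-type filament desmin, alone was tested, and it fell from 34.9 ± 1.65 to 18.0 ± 1.07 TPM (log2 difference -0.91, adjusted p = 0.00122).

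The genes with the most similar pattern were found by the Euclidean distance of log2(TPM + 1) values centred on their mean over the 4 libraries, among 11977 genes with a named symbol and a mean of at least 1 TPM. With 2 libraries per culture this measure mostly sorts genes by the size of their difference between the cultures. Among the genes near Ms4a4b were Ttr (distance 0.0466), the conjugating enzyme gene Ugt1a9 (0.399), the complement gene Cfb (0.640) and the glutathione transferase gene Gsta3 (0.641). Nearest to Ms4a4d was Klhl24 (0.0290), to Pilra AW112010 (0.0688), to Pilrb1 the iron-chelator carrier gene Lcn2 (0.332) and to Pilrb2 the sulfotransferase gene Sult1d1 (0.182). Nearest to Ncf4 was the vitamin D carrier gene Gc (0.221), to Rac2 the endoplasmic reticulum chaperone gene Dnajb9 (0.0191), to Lcp1 Tppp3 (0.0826) and to Ms4a6b the protease gene Furin (0.0539).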

How the data were processed

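RNA-seq libraries of polyadenylated RNA were made with a stranded kit from AML12 cells, 2 in 2D and 2 in 3D culture. Per the submitters' processing notes, the authors used cutadapt 1.8.3 and Trimmomatic 0.36 for trimming, HISAT2 2.0.5 for alignment to GRCm38, and StringTie 1.3.4 with the Ensembl release 93 annotation. The authors deposited TPM for each library. The authors' table also holds the fold change and p-value of their own DESeq2 comparison, which were not used here. TPM keep no depth, so no count test, interval or detection limit was computed.

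The labels gave each library's culture. The 14116 genes whose mean was at least 1 TPM entered a two-sided limma test of log2(TPM + 1) (limma 3.58.1, R 4.3.3, eBayes with a robust trend) with no covariate besides culture, adjusted by Benjamini-Hochberg; genes with an adjusted p under 0.05 were called. Fold changes on this scale understate the change of low genes. An exact permutation test of 2 against 2 cannot go below 0.333 and was not used.

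The 10 genes and all gene lists were chosen with earlier results of these data known, and the 10 genes were given no test. Named genes were the 10 genes, the 3 most abundant genes per list, markers and neighbours with a mean of at least 1 TPM or next to the 10 genes, and the genes nearest in pattern. Any other named gene was picked with its values known. Neighbours lay within 250 kb in the deposited table, whose positions equal GENCODE release M21 for 9 of the 10 genes. Promoters came from RefSeq (GRCm38.p6) and transcript sequences from GENCODE release M21. Windows and alignments were computed in Python 3.11.15 with Biopython 1.88. Alternatives were pseudocounts of 0.1 and 5, no filter, a mean of at least 5 TPM, centring on the median, a replicate block, windows of 100 and 500 kb, family sums and each library left out in turn. Protein sequences and Hi-C libraries were not analysed here. Some genes that met the rule for named genes are not reported here.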

Additional observations from a re-analysis of the deposited data

How the results depend on the processing

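The count of genes called between 3D and 2D was 7122, and it was 5977 with no filter and 6248 with the replicate number as a block. It ranged from 4720 to 5954 with each library left out in turn, and the lowest count came without 3D replicate 1; the lone library of a culture was then assumed to vary like the other culture. Same-numbered libraries did not deviate together (r = -0.05 over 14116 genes), and replicate numbers were not taken as pairs. Under the block 33 of 53 tested list genes and 29 of 42 tested neighbours were called, the same counts as without it. Among the neighbours Zkscan1 lost its call under the block and Lrch4 gained it. Leaving out a library gave 29 to 32 called list genes and 25 to 26 called neighbours. In windows of 100 and 500 kb 17 of 23 and 50 of 90 tested neighbours were called. The median log2 difference of the 10 genes was 2.48, and it was 3.31 with a pseudocount of 0.1, 1.55 with a pseudocount of 5, 2.14 with the family members summed and 2.41 to 2.55 with a library left out. No value of the 10 genes changed sign, which follows from their being picked as higher in 3D and is no check of them. For other named genes 843 values kept their side of the threshold, 38 lost it and 9 gained it. Over these alternatives the log2 difference ran from 0.90 to 3.48 for Lcp1 and from 0.24 to 2.70 for Ms4a4c, against 1.14 to 1.21 for Ms4a4d. The limits set by depth are unknown, since TPM keep none.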
